A study of Homo sapiens with 4 samples.

Results

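Interferon-stimulated genes are the genes that cells switch on when interferon reaches its receptor, and 49 of them were followed in the RNA of 2 human colorectal cancer cell lines. The 49 genes were given as a list of gene symbols, a list proposed with earlier results of these data known, and were all found among the 61544 genes of the count table. HT29 and HCT116 are epithelial lines grown from colorectal tumours, and each was sequenced as 1 untreated control library and 1 library made after 24 h with 1 ug/mL lipopolysaccharide (LPS), a lipid of the outer membrane of Gram-negative bacteria. The treated cells served as a model of inflamed intestinal epithelium, and each line is a single tumour-derived population with no immune or stromal cells beside it. There was 1 library per line and treatment, and no label named repeat cultures. The error given for a within-line comparison therefore covers counting error alone, and variation between cultures could not be measured.

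Interferons are secreted proteins that a cell releases after its sensors detect nucleic acids or bacterial lipids. Binding to the receptors activates the kinases JAK1 and TYK2, and transcription factors that include STAT2 and IRF9 then assemble on a DNA element called the interferon-stimulated response element, which lies near the start of many of the genes they induce. The induced proteins destroy or edit viral RNA, block viral entry or release, attach the ubiquitin-like protein ISG15 to other proteins, and amplify the signal. Intestinal epithelial cells respond to interferons, and LPS can lead to interferon release through TLR4 and its adaptor TRIF.

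The 4 libraries held between 19105058 counts (untreated HT29) and 21268959 counts (untreated HCT116), and mitochondrial genes took 3.75% and 4.29% of them in HT29 and 5.01% and 7.16% in HCT116, without and with LPS. Counts of a gene are given below in a fixed order, which is untreated HT29, LPS-treated HT29, untreated HCT116 and LPS-treated HCT116. The epithelial markers EPCAM, CDH1, KRT8, KRT18 and KRT19 were abundant in all 4 libraries, whereas VIL1, a microvillus protein, had 2637, 3004, 4 and 0 counts. KRT20, a keratin of mature colon cells that has a copy elsewhere in the reference, was at 0 in all 4. The leukocyte marker PTPRC had 0, 2, 0 and 0 counts, and of the fibroblast markers COL1A2, DCN and PDGFRA were at 0, while COL1A1 had 81, 59, 2225 and 1999.

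The response element was looked for in the DNA of the genes themselves. The letters GAAANNGAAA, the core of the element, were searched on both strands of the RefSeq promoters of GRCh38.p14, each running from 250 bases before to 50 bases after a start, and overlapping matches were counted separately. Of the 49 genes, 39 matched the promoter table by symbol, and 25 of these 39 (64.1%) held the letters, against 1195 of all 27305 genes (4.38%). A match is a description of the sequence and not a measured binding site. Stretches of 30 bases that hold the matches are shown for 6 genes, chosen with their values known. The choice was meant to include genes high in HT29, genes high in HCT116 and genes nearer in level. Each is written 5′ to 3′ along the gene's own strand, in lower case with the matched letters in capitals.
ISG15: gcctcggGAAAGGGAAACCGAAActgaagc
IFIT1: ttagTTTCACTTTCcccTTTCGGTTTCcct
OAS3: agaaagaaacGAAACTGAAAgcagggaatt
BST2: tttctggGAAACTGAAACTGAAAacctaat
IFITM3: agGAAAAGGAAActgttgaGAAACCGAAAc
HERC5: attacagTTTCCTTTTCCTTTTCgattccg

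The ISG15 stretch lies at chr1:1013377-1013406 on the plus strand, from 120 to 91 bases before the RefSeq start, and holds 2 overlapping matches within an intron of a longer annotated ISG15 transcript. The IFIT1 stretch (chr10:89392503-89392532, plus strand) holds 2 matches, both as the reverse complement TTTCNNTTTC, and lies in an intron of LIPA on the opposite strand. The OAS3 stretch (chr12:112938321-112938350, plus strand) holds 1 match and falls in the first exon, untranslated, of alternative OAS3 transcripts. The BST2 stretch (chr19:17405738-17405767, minus strand) holds 2 overlapping matches, and on the other strand it is covered by first exons of the genes BISPR and MVB12A. The IFITM3 stretch (chr11:320885-320914, minus strand) starts 54 bases before the RefSeq start and holds 2 separate matches in an intron of a longer annotated IFITM3 transcript. The HERC5 stretch (chr4:88456987-88457016, plus strand) holds 2 overlapping matches as the reverse complement and lies in no annotated gene. ISG15 had a high level in both lines, IFIT1 was close in level between them, and OAS3 was 1.45 times higher in HT29 in the fit described below. BST2 was high in HT29, and IFITM3 and HERC5 were high in HCT116. Among the genes higher in HT29 by the test described below, 9 of the 11 in the promoter table held the letters, as did 6 of the 12 higher in HCT116.

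Most of the list was expressed without stimulation. In the untreated libraries, 33 of the 49 genes in HT29 and 34 in HCT116 reached a level of 1 TPM (transcripts scaled to a common total, a level per gene length computed from the counts), and 15 and 17 of them reached 10 TPM. Together the 49 genes took 0.104% of all counts in the HT29 control (exact 95% interval 0.103% to 0.106%) and 0.162% in the HCT116 control (0.161% to 0.164%). With LPS the share was 0.115% in HT29 (0.114% to 0.117%) and 0.158% in HCT116 (0.156% to 0.159%). The mitochondrial share moved with these values in HCT116, and with mitochondrial genes left out of the total, an alternative chosen after the data were seen, the share of the 49 genes in HCT116 was 0.171% (0.169% to 0.173%) without and 0.17% (0.168% to 0.172%) with LPS. In HT29 it was 0.108% (0.107% to 0.11%) without and 0.12% (0.119% to 0.122%) with LPS. The share was thus higher with LPS in HT29 by more than counting error under either total, the lower share in HCT116 was lost without mitochondrial genes, and HCT116 stood above HT29 in both conditions. ADAR alone supplied a large part of it, and without ADAR the share in HT29 was 0.077% untreated and 0.0863% with LPS. In HCT116 it was 0.113% untreated (0.111% to 0.114%) and 0.112% with LPS (0.11% to 0.113%), with overlapping intervals.

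ISG15, the ubiquitin-like modifier, had the highest level per length of the 49 genes in each line. It stood at 285 and 255 TPM in HT29 and 455 and 386 TPM in HCT116. ADAR, which edits adenosines in double-stranded RNA, ranked 3 in both lines. Rank 2 was taken by different genes, BST2 in HT29 (193 and 223 TPM) and IFITM3 in HCT116 (229 and 253 TPM). At the low end, 6 genes had no count in the HT29 control and 2 had none in the HCT116 control. IFI44L was at 0 in all 4 libraries, a floor of 3 counts per library, and SAMD9L had a single count.

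**Figure D1:**
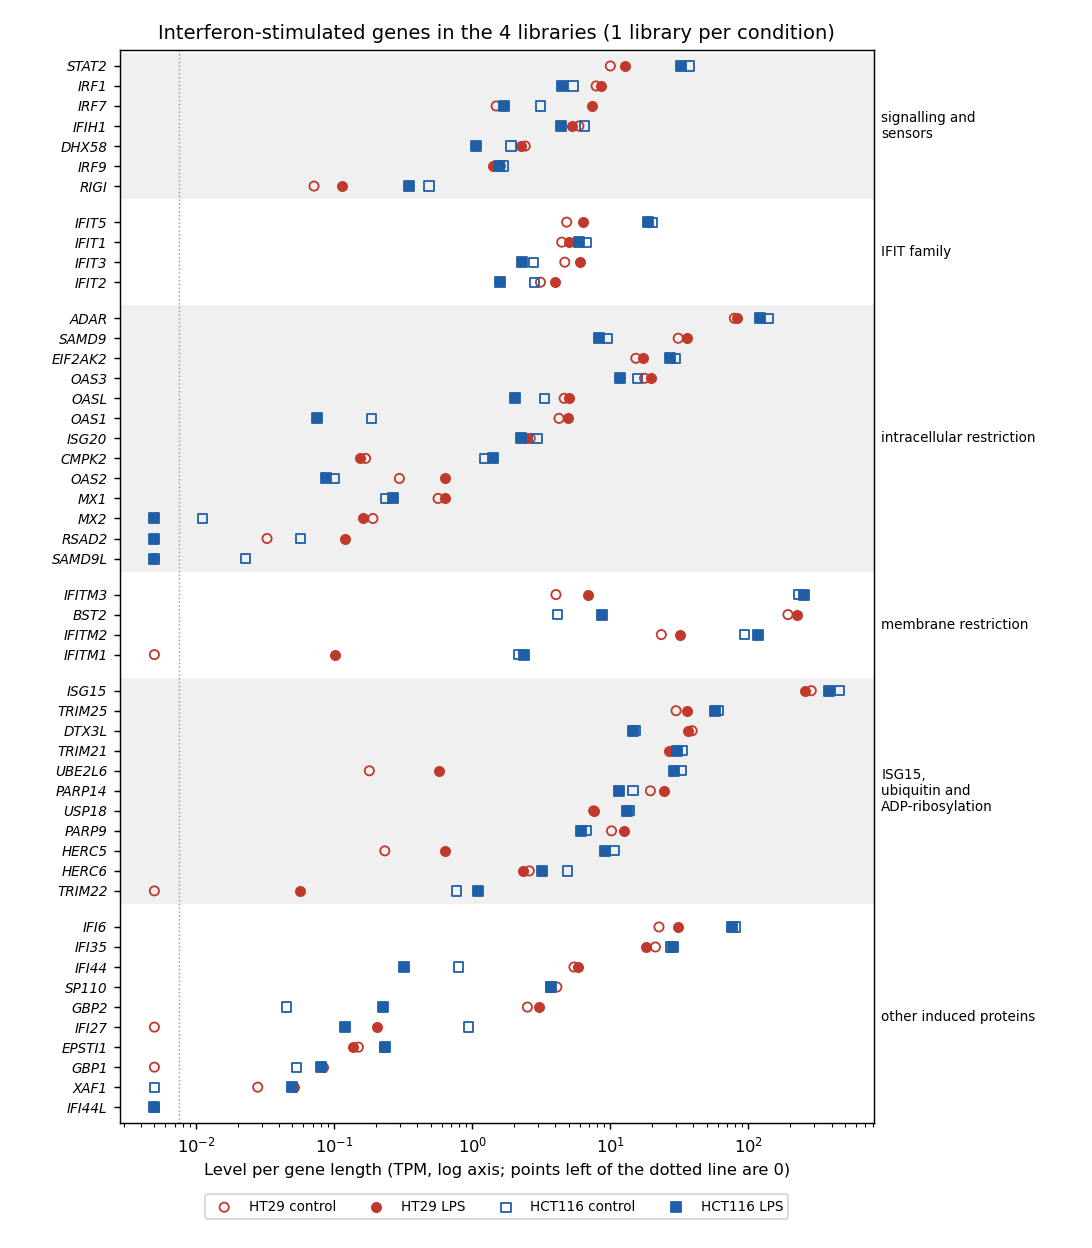
Level of each of the 49 genes in the 4 libraries, as TPM on a log axis, grouped by role. Open symbols are controls, filled symbols are LPS, red circles are HT29 and blue squares are HCT116, with 1 library per point. The distance between the colours exceeded the distance between open and filled symbols for BST2, IFITM3, UBE2L6, HERC5, OAS1 and GBP2, and 1 gene, IFI44L, lay at 0 throughout.

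The first comparison asked how the 2 lines differ in these genes. Individual genes differed widely, up to a fitted 73.5-fold for UBE2L6 on 2 and 7 counts in HT29. The calls were split evenly between the lines, although the summed share of counts given above was higher in HCT116. In the fit OAS1, BST2, GBP2 and IFI44 were more than 10 times higher in HT29, and UBE2L6, IFITM3 and HERC5 were more than 10 times higher in HCT116, although single libraries moved most of these sizes by over 1.5 times, as given with each gene. Across all genes, edgeR's quasi-likelihood test with LPS as a block called 76.6% of the 14516 tested at an adjusted p under 0.05, with 38% higher in HT29 and 38.6% higher in HCT116. Of the 49 genes, 36 were tested and 28 of these (77.8%) were called, 14 higher in HT29 and 14 higher in HCT116, a share near that of all genes. The 13 genes that were not tested had at most 42 counts in any library. A log2 difference of at least 1 was reached by 15 called genes (41.7%), against 39.9% of all genes. The median difference, HT29 minus HCT116, was 0.10 on the log2 scale (all genes -0.016) and the median absolute difference was 0.83 (all genes 0.76). The sign of the median turned with the scaling and the filter, to -0.052 with library size alone and to -0.33 with a minimum of 5 CPM (counts scaled to a common library total). With that minimum the calls were 10 higher in HT29 and 14 higher in HCT116. The 1 residual degree of freedom of the fit compares the LPS difference between the lines, so these p-values describe 4 libraries and not repeat cultures. In bulk RNA, fewer cells that express a gene and less RNA per cell cannot be told apart.

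**Figure D2:**
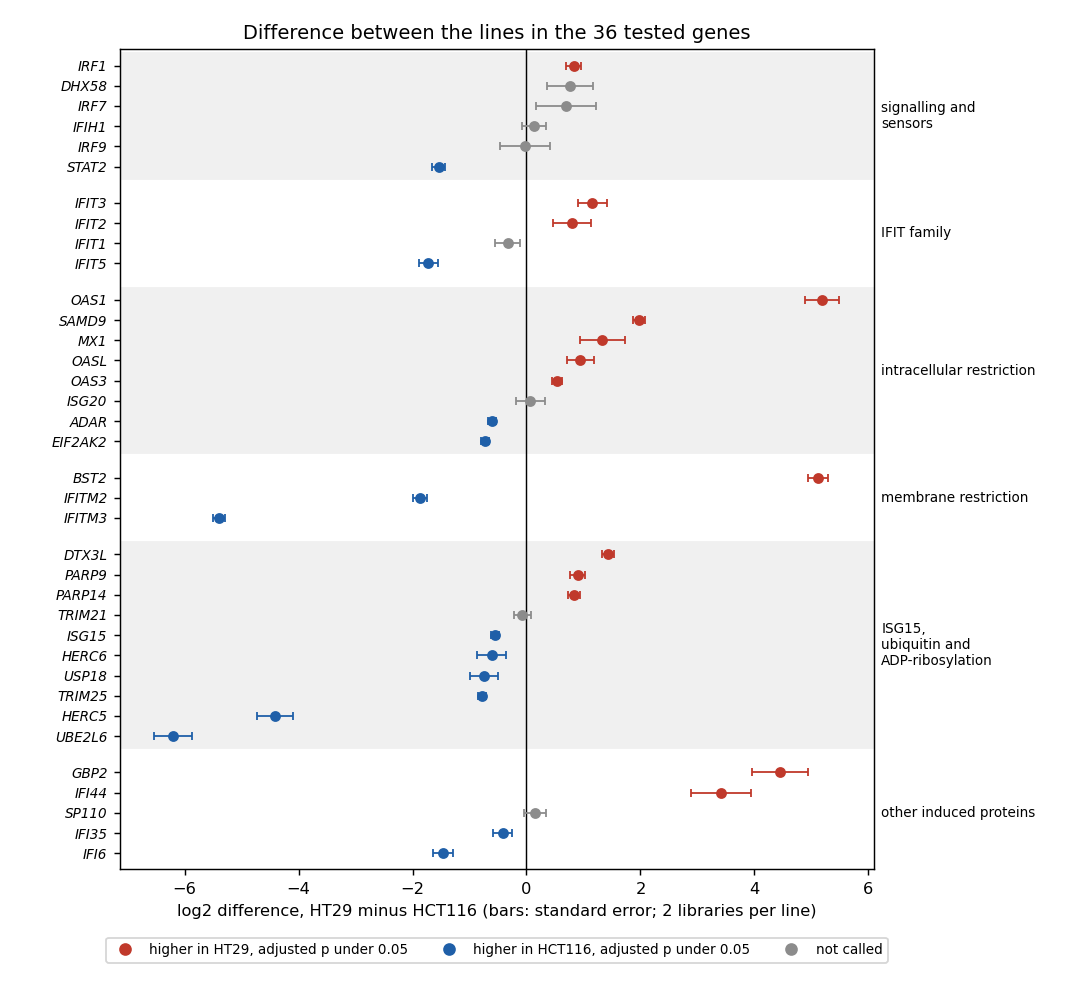
Log2 difference between HT29 and HCT116 for the 36 tested genes, by role, with bars for the standard error of the fit over 2 libraries per line. Red points are higher in HT29 and blue points higher in HCT116 at an adjusted p under 0.05, and grey points were not called. The points spread from -6.20 (UBE2L6) to 5.19 (OAS1), with 14 red and 14 blue.

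The second comparison asked what LPS did within each line. In HT29 most of the genes measured were slightly higher in the LPS library, with IRF7, OAS2 and IFITM3 furthest up. In HCT116 more genes were lower than higher, with BST2 and TRIM22 up and IRF7, DHX58 and IFIT2 down. The values are log2 ratios of treated over untreated normalized CPM with a prior count of 2. They are given for genes that averaged 1 CPM or more in the line. The size of 0.58 was taken from the study's methods, which set it for microarrays of colon tissue together with an adjusted p threshold. Here it was used on single libraries without a test. In HT29, 3.5% of 13201 genes lay above 0.58 and 2.7% below -0.58, and among the 49 genes 35 were measured, with 3 above and 0 below. Across all genes of HT29, 48.2% had a ratio above 0, and in the list 25 of 35 (71.4%) did. The counting interval lay above 0 for 15.9% of all genes and for 16 of the 35 (45.7%), and below 0 for 18.5% of all genes and for 1 of the 35, ISG15. The median ratio of the 35 was 0.15, in a range from -0.23 to 2.20 (all genes -0.0076).

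In HCT116, 3.56% of 14337 genes lay above 0.58 and 2.34% below -0.58, and of the 37 genes of the list that were measured 2 lay above and 3 below. A ratio above 0 was found in 49.5% of all genes and in 15 of the 37 (40.5%). The counting interval lay above 0 for 17% of all genes and for 3 of the 37, IFITM2, IFITM3 and BST2, and below 0 for 18.2% of all genes and for 9 of the 37 (24.3%). The median was -0.058, in a range from -0.72 to 1.12 (all genes -0.0025). Over both lines, with the cell line as a block, edgeR called 0.22% of 14516 genes for LPS (32 genes) and 0 of the 36 tested here, and DESeq2 also called 0 of the 36. At an unadjusted p under 0.05 edgeR gave 7.58% of all genes and 3 of the 36, IFITM2, IFITM3 and BST2. The lines stand in for replicates in this LPS test, so its p-values do not describe repeat cultures.

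**Figure D3:**
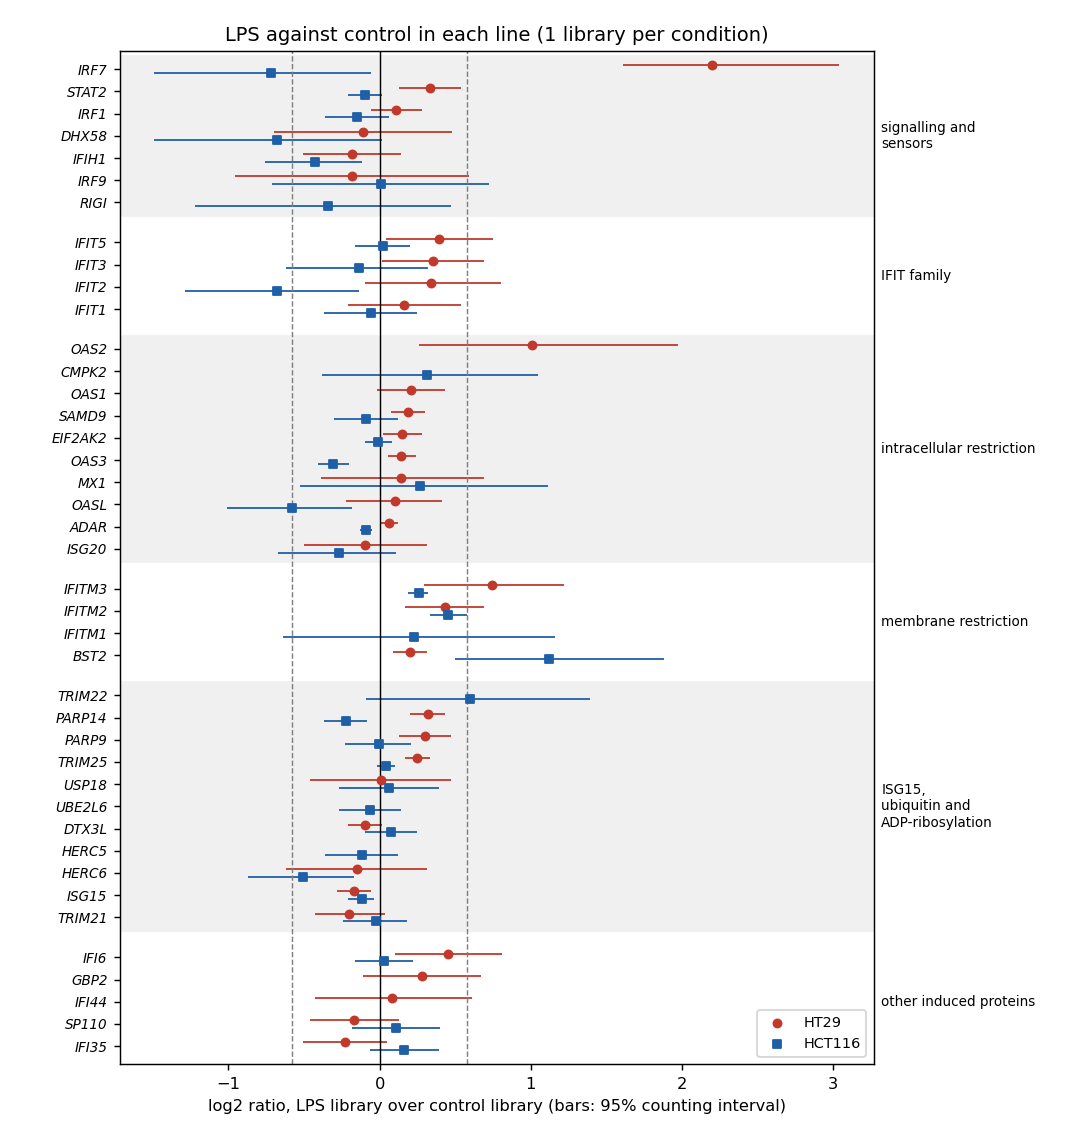
Log2 ratio of LPS over control in HT29 (red circles) and HCT116 (blue squares) for the genes measured in either line, by role, with exact 95% counting intervals. Dashed lines mark a ratio of 0.58 in either direction. In HT29 25 of 35 points lie right of 0, and in HCT116 22 of 37 lie left of it.

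In 31 genes measured in both lines, the signs were compared directly. A ratio above 0 in HT29 and below 0 in HCT116 was found in 21.8% of all 12085 genes measured in both lines and in 13 of the 31 (41.9%), the reverse in 4, a ratio above 0 in both in 8 and below 0 in both in 6. The ratios of many of the 13 were small, and the counting intervals lay above 0 in HT29 and below 0 in HCT116 in 4 of them, IRF7, OAS3, PARP14 and ADAR. That is 12.9% of the 31 genes, against 2.33% of all 12085. The difference between the lines could not be tested with 1 library per condition.

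**Figure D4:**
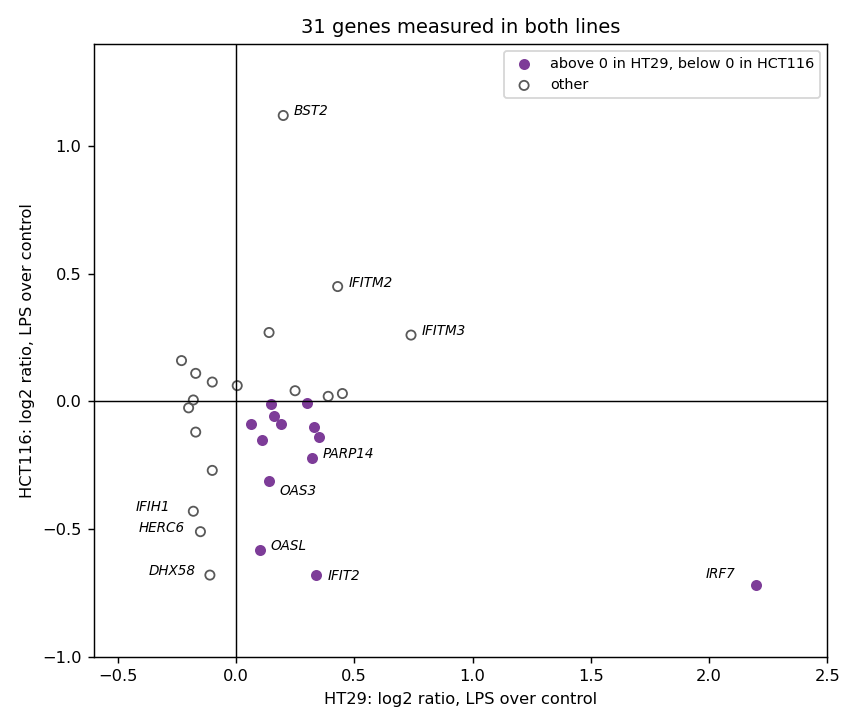
Log2 ratio with LPS in HT29 (horizontal) and HCT116 (vertical) for the 31 genes measured in both lines, with 1 point per gene. Filled points are the 13 genes above 0 in HT29 and below 0 in HCT116, and IRF7 stands furthest from the rest at 2.20 and -0.72, while IFITM2, IFITM3 and BST2 lie above 0 in both lines.

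Calls between the lines are given below by group and list. Of all 14516 genes tested, 76.6% were called, with 38% higher in HT29 and 38.6% higher in HCT116. The genes of signalling and sensing came first in order of function. Of the 6 tested between the lines, IRF1 was higher in HT29, STAT2 was higher in HCT116, and DHX58, IRF7, IFIH1 and IRF9 were not called. STAT2, a subunit of the complex that binds the response element, had 335, 464, 1422 and 1218 counts. Both HCT116 libraries stood above both HT29 libraries, with a log2 difference of -1.54 (standard error 0.113, edgeR adjusted p = 1.29e-10). With LPS the STAT2 ratio was 0.33 in HT29 (95% counting interval 0.13 to 0.54) and -0.10 in HCT116 (-0.21 to 0.016). IRF1, an early transcription factor of the response, had 523, 623, 404 and 333 counts, and the log2 difference was 0.83 (standard error 0.133, edgeR adjusted p = 1.06e-05). IRF1 shares 22.87% of its exon bases with IRF1-AS1 on the opposite strand, which had 29 to 60 counts.

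IRF7, the factor that amplifies interferon production, showed the largest LPS ratio of the genes measured and opposite signs in the 2 lines. It lies at chr11:612553-615983 on the minus strand. It had 21, 113, 50 and 27 counts. The HT29 LPS library stood above the other three, and the HT29 control stood lowest. The ratio with LPS was 2.20 in HT29 (4.58-fold, counting interval 1.61 to 3.04) and -0.72 in HCT116 (-1.49 to -0.058). Between the lines IRF7 was therefore lower in HT29 in the controls, by 0.87 on the log2 scale, and higher in HT29 by 2.05 with LPS. The fitted line difference of 0.70 (standard error 0.527, edgeR adjusted p = 0.23) was not called. Every fit with a library left out, here and below, also had no LPS block, and dropping the block alone gave 0.97 for IRF7 (adjusted p = 0.118). With that change IRF7 took either sign, from -0.6 without HT29 LPS to 1.69 (adjusted p = 6.41e-05) without the HT29 control, and was 1.4 (adjusted p = 0.0226) without the HCT116 control. The whole transcript has an identical copy on an alternate contig of the reference, so the IRF7 counts are uncertain where reads were split or dropped. Genes with such a copy passed a ratio of 0.58 in either direction more often than other genes in these libraries, in 153 of 846 (18.1%) against 5.38% in HT29 and in 149 of 879 (17%) against 5.18% in HCT116. The part of the copy in the IRF7 values was not tested.

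Among the RNA helicases of viral RNA detection, RIGI was the lowest and IFIH1 the highest in each library. RIGI had 4, 7, 31 and 22 counts and was too low to test, and 43.22% of its exon bases are shared with an overlapping gene model on the same strand. IFIH1, which encodes the helicase MDA5, had 163, 158, 203 and 137 counts, and its levels overlapped between the lines (log2 difference 0.13, standard error 0.205, edgeR adjusted p = 0.558). The IFIH1 ratio with LPS was -0.18 in HT29 (-0.51 to 0.14) and -0.43 in HCT116 (-0.76 to -0.12). DHX58, another helicase of this family, had 50, 51, 45 and 25 counts, with a ratio of -0.68 in HCT116 and an interval from -1.49 to 0.017 that included 0. IRF9, the DNA-binding subunit of the same complex as STAT2, had 31, 30, 37 and 34 counts and shares 23.86% of its exon bases with a gene model on the same strand, so its low and even values are uncertain. In HCT116 6 of the 7 signalling genes had a ratio below 0, with a median of -0.34, against 50.5% of all genes. The counting interval lay below 0 for IFIH1 and IRF7 and included 0 for the others. In HT29 3 of the 6 measured had a ratio below 0, with a median of 0.0035.

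The 4 IFIT genes lie side by side at 10q and encode proteins that bind foreign RNA and block its translation. All 4 were higher in the LPS library of HT29, with ratios from 0.16 to 0.39 and a median of 0.34, and 3 of the 4 were lower in the LPS library of HCT116, with ratios from -0.68 to 0.02. Of all genes, 48.2% were higher in HT29 and 50.5% lower in HCT116 with LPS. IFIT2 (chr10:89283694-89309271) had 73, 102, 75 and 42 counts. The controls of both lines were close to each other, and the LPS libraries lay on either side of them. The ratio was 0.34 in HT29 (-0.10 to 0.80) and -0.68 in HCT116 (-1.29 to -0.14). IFIT3 had 128, 180, 86 and 71 counts, with both HT29 libraries above both HCT116 libraries and a log2 difference of 1.15 (standard error 0.255, edgeR adjusted p = 0.000413). IFIT5 had 114, 165, 540 and 501 counts and was the member higher in HCT116, with a log2 difference of -1.72 (standard error 0.168, edgeR adjusted p = 1.17e-08). IFIT1 (111, 137, 189 and 166 counts) was not called, at -0.33 (standard error 0.215, edgeR adjusted p = 0.172). The line difference of IFIT2, 0.80 (standard error 0.338, edgeR adjusted p = 0.0385), was lost with DESeq2 (adjusted p = 0.198), without HT29 LPS (0.59, adjusted p = 0.153) and without HCT116 LPS (0.46, adjusted p = 0.271).

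Among 13 genes that act inside the cell on nucleic acids or viruses, 8 were tested between the lines, 5 were higher in HT29 and 2 were higher in HCT116. Of all genes tested, 38% were higher in HT29 and 38.6% higher in HCT116. ISG20, an RNA exonuclease with 102, 105, 130 and 98 counts, was not called. The OAS enzymes make the messenger oligoadenylate, which activates the RNase that degrades viral RNA, and they were higher in HT29. OAS1 (chr12:112905856-112933219) had 299, 380, 15 and 6 counts. The HT29 libraries were 36.5 times higher in the fit, a log2 difference of 5.19 (standard error 0.299, edgeR adjusted p = 2.84e-12). It was 5.91 without the HCT116 control and 4.73 without HCT116 LPS. OAS3 had 1726, 2101, 1745 and 1291 counts, and at 17.7, 19.7, 15.7 and 11.7 TPM it had the highest level per length of the 3 OAS genes. Its log2 difference between the lines was 0.54 (standard error 0.0877, edgeR adjusted p = 1.46e-05), and its LPS ratio was 0.14 in HT29 (0.052 to 0.24) and -0.31 in HCT116 (-0.41 to -0.20). OAS2 had 18, 42, 7 and 6 counts, too few for the line test, with an LPS ratio of 1.01 in HT29 (0.26 to 1.97). OASL, a relative without the enzyme activity, had 158, 186, 130 and 79 counts and a line difference of 0.94 (standard error 0.238, edgeR adjusted p = 0.00137). The HCT116 ratio of OASL was -0.58 (-1.01 to -0.18) and lay just inside the size of 0.58, as the value nearest to it.

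SAMD9, a large cytoplasmic protein that restricts poxviruses, was also higher in HT29, with 1149, 1444, 402 and 346 counts and a log2 difference of 1.98 (standard error 0.106, edgeR adjusted p = 9.19e-13). MX1, a GTPase that blocks influenza virus, was low, at 55, 67, 26 and 29 counts, with a difference of 1.33 (standard error 0.398, edgeR adjusted p = 0.00506). MX1 overlaps TMPRSS2 on the opposite strand over 562 bases, and TMPRSS2 had 521, 564, 1 and 0 counts. Whether reads of TMPRSS2 entered the MX1 counts was not tested. EIF2AK2 and ADAR, which both act on double-stranded RNA, were the 2 genes higher in HCT116. EIF2AK2, which encodes the kinase PKR, had 914, 1115, 2007 and 1824 counts, a log2 difference of -0.73 (standard error 0.077, edgeR adjusted p = 3.9e-08). ADAR (chr1:154581695-154628013, minus strand) had 5223, 6013, 10548 and 9076 counts, the highest counts of the list, and a difference of -0.61 (standard error 0.0677, edgeR adjusted p = 7.85e-08). The LPS ratio of ADAR was small in both lines, 0.064 in HT29 (0.011 to 0.12) and -0.089 in HCT116 (-0.13 to -0.048), and at this depth the signs differed beyond counting error.

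Several genes that are commonly used to read an interferon response had few counts. RSAD2, which encodes viperin, had 1, 4, 2 and 0 counts, and MX2 had 15, 14, 1 and 0. CMPK2, a mitochondrial kinase gene next to RSAD2, had 4, 4, 33 and 38. In this group 8 of 9 genes measured in HT29 had an LPS ratio above 0 (median 0.14), and in HCT116 6 of 8 had a ratio below 0 (median -0.088). The shares of all genes were 48.2% above 0 in HT29 and 50.5% below 0 in HCT116.

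The proteins that restrict viruses at membranes formed the only group in which every measured gene had a higher value with LPS in both lines, and they split widely between the lines. The IFITM proteins block the fusion of virus and cell membranes, and tetherin, the product of BST2, holds new virus particles at the cell surface. BST2 (chr19:17402939-17405630, minus strand) had 1148, 1452, 28 and 58 counts. The HT29 level was 34.5 times higher, a log2 difference of 5.11 (standard error 0.172, edgeR adjusted p = 4.67e-16). It was 4.60 without the HCT116 control and 5.77 without HCT116 LPS. IFITM3 (chr11:319676-329475, minus strand) showed the opposite order, with 62, 115, 4007 and 4380 counts. It was 42.1 times higher in HCT116, a log2 difference of -5.40 (standard error 0.108, edgeR adjusted p = 1.25e-19). IFITM2 had 203, 301, 921 and 1155 counts and was 3.65 times higher in HCT116 (log2 difference -1.87, standard error 0.118, edgeR adjusted p = 1.21e-11). IFITM1 had 0, 1, 22 and 24 counts and was not tested, and it too had its reads in HCT116. The 3 IFITM genes lie in 1 cluster on chromosome 11 and have very similar sequences, so reads could have been divided among them. The search for copies at 98% identity found none for these genes, and a division of reads was not tested.

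All 3 membrane genes measured in HT29 and all 4 measured in HCT116 had an LPS ratio above 0, with medians of 0.43 and 0.36. The shares of all genes above 0 were 48.2% in HT29 and 49.5% in HCT116. IFITM2 had a ratio of 0.43 in HT29 (0.17 to 0.69) and 0.45 in HCT116 (0.33 to 0.58). IFITM3 had 0.74 in HT29 (1.67-fold, interval 0.29 to 1.22) and 0.26 in HCT116 (0.19 to 0.32). BST2 had 0.20 in HT29 (0.087 to 0.31) and 1.12 in HCT116 (2.17-fold, interval 0.50 to 1.88), the largest ratio of the list in that line. These 3 genes were the ones whose counting intervals lay above 0 in both lines. Over both lines the log2 fold change with LPS was 0.44 for IFITM2 (standard error 0.116, edgeR adjusted p = 0.172) and 0.34 for IFITM3 (standard error 0.0941, edgeR adjusted p = 0.242). The fold change of BST2 was 0.38 (standard error 0.154, edgeR adjusted p = 0.57). With a minimum of 5 CPM, IFITM2 and IFITM3 were both called at an adjusted p of 0.0236 by the same edgeR test, and with no filter their adjusted p was 0.0681 and 0.0682. These p-values use the lines in place of replicates and do not describe repeat cultures.

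ISG15 is joined to other proteins by the conjugating enzyme UBE2L6 and the ligase HERC5 and is removed by USP18. All of these were higher in HCT116, and UBE2L6 and HERC5 were nearly missing from HT29. ISG15 (chr1:1001138-1014540) had 1334, 1304, 2424 and 2037 counts, with both HCT116 libraries above both HT29 libraries. Its log2 difference was -0.56 (standard error 0.071, edgeR adjusted p = 5.32e-07), and its LPS ratio was below 0 in both lines, at -0.17 in HT29 (-0.28 to -0.06) and -0.12 in HCT116 (-0.21 to -0.037). UBE2L6 (chr11:57551656-57568284, minus strand) had 2, 7, 412 and 361 counts, a level of 0.18 and 0.575 TPM in HT29 against 32.5 and 28.7 TPM in HCT116. The log2 difference of UBE2L6 was -6.20 (standard error 0.329, edgeR adjusted p = 7.61e-13), and between the controls alone its counting interval ran from -10.41 to -5.50. It was -5.64 without the HT29 control and -7.25 without HT29 LPS. HERC5 (chr4:88457119-88506163) had 6, 18, 314 and 265 counts, a log2 difference of -4.41 (standard error 0.322, edgeR adjusted p = 1.29e-10), which was -3.87 without the HT29 control and -5.30 without HT29 LPS. USP18 had 76, 84, 157 and 150 counts and a difference of -0.75 (standard error 0.249, edgeR adjusted p = 0.0104). The related ligase gene HERC6 had 81, 80, 175 and 112 counts, and its difference of -0.61 (standard error 0.257, edgeR adjusted p = 0.0378) was lost with DESeq2 (adjusted p = 0.129). It was also lost without HT29 LPS (-0.55, adjusted p = 0.0849) and without the HCT116 control (-0.35, adjusted p = 0.37).

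The other enzymes of this group were split. TRIM25, a ubiquitin ligase that activates RIG-I, had 2005, 2625, 4630 and 4363 counts and was higher in HCT116 (-0.78, standard error 0.0694, edgeR adjusted p = 3.08e-09). DTX3L and PARP9, whose proteins form a complex and whose genes share a promoter region with 139 overlapping exon bases, were both higher in HT29. DTX3L had 1218, 1254, 535 and 516 counts, a difference of 1.43 (standard error 0.0984, edgeR adjusted p = 5.01e-11), and PARP9 had 491, 665, 368 and 335 counts, a difference of 0.90 (standard error 0.135, edgeR adjusted p = 5.01e-06). PARP14, another gene of ADP-ribosylation nearby on chromosome 3, had 1080, 1481, 920 and 721 counts. With LPS PARP14 had a ratio of 0.32 in HT29 (0.20 to 0.43) and -0.22 in HCT116 (-0.37 to -0.081), and its difference between the lines was 0.83 (standard error 0.106, edgeR adjusted p = 5.97e-07). TRIM22, a ligase that restricts several viruses, had 0, 2, 28 and 40 counts, with an HCT116 ratio of 0.60 and an interval from -0.09 to 1.39 that included 0. Of the 10 genes of the group that were tested, 3 were higher in HT29, 6 were higher in HCT116 and TRIM21 (319, 306, 397 and 357 counts) was not called (-0.075, standard error 0.152, edgeR adjusted p = 0.662). The median LPS ratio of the group was -0.046 in HT29 and -0.025 in HCT116.

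The remaining 10 induced proteins held 5 tested genes, 2 higher in each line and SP110 not called, at 196, 192, 201 and 199 counts. GBP2, a guanylate-binding protein that attacks vacuoles of intracellular bacteria, had 98, 131, 2 and 10 counts and a log2 difference of 4.45 (standard error 0.485, edgeR adjusted p = 5.96e-08). It was 3.62 without the HCT116 control and 5.98 without HCT116 LPS. IFI44 had 60, 70, 10 and 4 counts, a difference of 3.41 (standard error 0.521, edgeR adjusted p = 6.15e-06), which was 4.10 without the HCT116 control and 2.93, or less than 10-fold, without HCT116 LPS. IFI6, a mitochondrial and endoplasmic reticulum protein that limits cell death, had 114, 172, 461 and 431 counts and was higher in HCT116 (-1.47, standard error 0.175, edgeR adjusted p = 2.25e-07). Its LPS ratio was 0.45 in HT29 (0.10 to 0.81) and 0.031 in HCT116 (-0.16 to 0.22). IFI35 had 224, 210, 328 and 336 counts, and its call (-0.42, standard error 0.173, edgeR adjusted p = 0.0335) was lost with DESeq2 (adjusted p = 0.109), without HT29 LPS (-0.31, adjusted p = 0.146) and without HCT116 LPS (-0.35, adjusted p = 0.135). IFI27 had 0, 5, 24 and 3 counts and carries an identical copy on an alternate contig, so these counts are uncertain. XAF1, EPSTI1 and GBP1 had at most 7 counts in any library.

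The pathway around these genes was read from lists of genes outside the 49. Calls between the lines in these lists stand beside the 76.6% of all genes that were called. Of 10 interferon genes, 7 had no count in any library, IFNA1 and IFNL3 had 1 count each in 1 library, and IFNE, the interferon of epithelia, had 24, 31, 15 and 8 counts. A count of 0 allows up to 3 counts per library. Of 11 genes for interferon receptors and JAK-STAT signalling, 10 were tested between the lines, with 2 higher in HT29, 6 higher in HCT116 and 2 not called, and the median LPS ratio was 0.11 in HT29 and -0.015 in HCT116. IL10RB, a shared receptor chain for interferon lambda, had 2, 6, 48 and 17 counts and an HCT116 ratio of -1.27 (-2.26 to -0.55). IFNGR2, a receptor chain for interferon gamma that also has a copy in the reference, had 230, 267, 167 and 260 counts and an HCT116 ratio of 0.76 (0.48 to 1.06).

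Of 18 sensing genes, 14 were tested, with 6 higher in HT29, 5 higher in HCT116 and 3 not called. TLR4, the LPS receptor, had 313, 362, 0 and 0 counts. LY96, which encodes the MD-2 protein that TLR4 needs to bind LPS, had 0 counts in 3 libraries and 1 in HCT116 with LPS, and is named after its values were seen. CGAS, the sensor of cytosolic DNA, had 660, 712, 1 and 0 counts. SOCS3, an inhibitor of JAK-STAT signalling, had 6, 3, 515 and 549 counts, a log2 difference of -6.66 (standard error 0.298, edgeR adjusted p = 4.78e-14). Among 8 genes listed as negative regulators, 3 were higher in HT29, 4 in HCT116 and 1 was not called. UBA7, the enzyme that activates ISG15 and that was placed in this list, had 9, 23, 43 and 72 counts and an HCT116 ratio of 0.84 (0.31 to 1.45).

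A further 46 interferon-induced genes, of which 33 were tested, gave 14 higher in HT29, 10 higher in HCT116 and 9 not called. APOL1, an apolipoprotein of the innate response, had 698, 756, 3 and 3 counts, and TNFSF10, which encodes the death ligand TRAIL, had 79, 65, 0 and 0. In HT29 16 of these genes had an LPS ratio above 0 and 16 below, with a median of -0.0058, and in HCT116 19 were above and 11 below, with a median of 0.015. Of the 49 genes, 59.5% of those measured in HCT116 had a ratio below 0, against 50.5% of all genes. The upward lean of the 49 genes in HT29 was not seen in the counts of this second list, and the difference between the lists was not tested. Of its 35 genes with a promoter sequence, 22 (62.9%) held the letters GAAANNGAAA, a share close to the 64.1% of the 49.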

How the data were processed

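Total RNA of HT29 and HCT116 cells was made into NEBNext Ultra libraries, 1 per line and treatment. The authors deposited 1 table of raw counts per gene. According to the study's methods and the processing notes of the submitters, reads were trimmed (cutadapt 1.9 and Trimmomatic 0.39 are named), aligned to hg38 with HISAT2 2.1.0 and counted with featureCounts 2.0.1. The sources used here do not give the settings for strand and multiple alignments or the annotation release. Without a known strand setting, a gene and an antisense partner cannot be told apart.

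Of 61544 genes, 61399 had a symbol in GENCODE 44 and 30392 had a count. Rows with no symbol took at most 0.02% of the counts. The column named NC of each line was taken as its control. Count tests used edgeR 4.0.16 (R 4.3.3, limma 3.58.1) with TMM factors of 0.944 to 1.06, a quasi-likelihood fit, a mean of at least 1 normalized CPM and Benjamini-Hochberg adjustment at 0.05 over 14516 genes. The line test kept LPS as a block, and the LPS test kept the cell line as a block, each with 1 residual degree of freedom. Ratios within a line used a prior count of 2 and exact 95% Clopper-Pearson intervals, which cover counting error only. TPM was computed from the counts and the gene lengths of the table. Copies were found with minimap2 2.31 as a second place covering at least 50% of a transcript at 98% identity, for 1018 genes. The scripts were tested on simulated data. Alternatives were DESeq2 1.42.0, normalization by DESeq2 size factors, by library size alone or by TMM inside a line, other filters, prior counts and sizes, no block, 1 library left out, mitochondrial genes left out, control or LPS libraries alone, and length and GC trends removed. A fit without the genes that have a copy, and a total without mitochondrial genes, were chosen after seeing the data.

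The 49 genes, their groups and the further lists were chosen with earlier results of these data known. Genes outside the 49 were named by rule as the 5 with the largest line difference and the 3 with the largest LPS ratio, and those in the text beyond these serve to describe their list. Full statistics went to genes past 0.58 with LPS, genes with an unadjusted p under 0.05 over both lines, and in each group the 4 with the largest line difference and the one with the highest level.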

Additional observations from a re-analysis of the deposited data

Results flagged for a closer look

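In 4 genes the LPS ratio was above 0 in HT29 and below 0 in HCT116, each beyond counting error, and a test of this difference was not possible with 1 library per condition, so it was not tested. On the log2 scale, the HT29 ratio minus the HCT116 ratio was 2.92 for IRF7, 0.54 for PARP14, 0.45 for OAS3 and 0.15 for ADAR. By the same criterion, 2.33% of all 12085 genes measured in both lines had a counting interval above 0 in HT29 and below 0 in HCT116, against 12.9% of the 31 genes followed here (4 of 31). IRF7 has an identical copy on an alternate contig of the reference, and PARP14, OAS3 and ADAR had none by the same search.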

How the results depend on the processing

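Of the values that answer a comparison, 58 stayed the same under an alternative, 8 moved and 3 changed sign. A count of genes was taken as the same if within a set fold of the main count. The 28 genes called between the lines, for example, became 34 with no filter and 24 with a minimum of 5 CPM. Of the values for single genes 493 stayed, 10 lost and 5 gained a call, and 8 changed sign. The share of counts in the 49 genes moved in all 4 libraries when mitochondrial genes were left out of the total. The 28 genes called between the lines became 15 when a log2 difference of at least 1 was required and ranged from 27 to 31 when 1 library was left out and the LPS block was dropped with it. The 0 genes called for LPS over both lines became 2 with a minimum of 5 CPM (IFITM2 0.44, IFITM3 0.34) and 1 without genes with a copy (IFITM2 0.45, adjusted p = 0.0354 by edgeR). The 3 genes past 0.58 in HT29 became 10 with no filter and 0 with a minimum of 5 CPM, and the 5 of HCT116 became 11, 0, and 1 with a size of 1. The median line difference of 0.10 became -0.052 with library size alone, which moved the median of all genes from -0.016 to -0.18. It became -0.049 with no filter and -0.33 with a minimum of 5 CPM. The line difference changed sign with library size alone in IFIH1 (-0.018), ISG20 (-0.086) and SP110 (-0.0028). With 1 library left out in turn, again with no LPS block, it ranged from -0.09 to 0.36 in IFIH1, from -0.082 to 0.21 in ISG20, from -0.6 to 1.69 in IRF7, from -0.12 to 0.068 in IRF9 and from -0.17 to 0.024 in TRIM21. The lowest value of IFIH1 and ISG20 came without HCT116 LPS, and the lowest of IRF7 and the highest of IRF9 and TRIM21 came without HT29 LPS. Of these 6 genes, IRF7 alone was called under any of these settings, without the HT29 control (adjusted p = 6.41e-05 by edgeR) and without the HCT116 control (adjusted p = 0.0226). The causes were not tested.

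No paired analysis was possible because each group is 1 library, so the groups share fewer than 2 replicate numbers. The line test and the LPS test already carried the treatment or the line as a block. With 1 library per condition, an LPS ratio cannot be told apart from the variation between cultures. The depth of 19105058 to 21268959 counts per library left 13 of the 49 genes too low for the line test.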
